A study of Mus musculus with 5 samples.

Results

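The genes that sense and repair damaged DNA were read in hematopoietic stem cells (HSCs) of mice with and without Atxn1L. The list held 42 genes of 7 repair routes, grouped by their known function. A gene was read by the probe sets that the array's annotation gives to that gene alone and, where there were several, by the probe set with the highest mean over the 5 arrays. In this way 41 of the 42 genes were measured, among 18193 genes that at least 1 probe set read alone. Xrcc2 was not analysed here.

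RNA of sorted HSCs was measured on Affymetrix mouse arrays, 3 of WT mice and 2 of Atxn1L null mice, to look for expression differences behind the altered activity of the null cells. All mice were C57Bl/6 and, per the labels, 6 to 8 weeks old, and the cells came straight from the marrow with no treatment or culture. The null mice carried a knock-out allele of Atxn1L (Ataxin-1-like) that was made in earlier work, so the gene was missing from the whole animal and not from HSCs alone. HSCs were sorted as lineage-negative, c-Kit+, Sca-1+, CD150+ cells that exclude Hoechst dye (the side population), and the cells of several mice were pooled for each array. The p-values therefore measure the spread between pools. The RNA was linearly amplified before hybridization. In such bulk samples fewer cells of a type and less RNA per cell cannot be told apart.

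Cells mend double-strand breaks by homologous recombination, which copies an intact sister strand and is active after replication, or by end joining, which ligates the broken ends at any time in the cycle. The kinases ATM and ATR report breaks and stalled replication forks to the checkpoint kinases, and the Fanconi anemia proteins unhook crosslinks between the strands. Damaged or mismatched bases are replaced by base excision, nucleotide excision and mismatch repair. In blood, inherited loss of Fanconi anemia genes leads to marrow failure, and quiescent HSCs are known to lean on end joining.

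The arrays carried the genotype of their labels. Of 3 Atxn1l probe sets, 2 were lower in the null arrays, with log2 means of 3.53 against 6.15 and of 3.44 against 6.19, and the other read 1.32 in both genotypes. Of 15 measured HSC markers, 14 were bright, which is used here for a log2 mean of 5 or more in WT or null arrays. Also bright were 11 of 25 markers of other blood cells, among them Camp, Prtn3 and Mpo with WT means of 13.42, 11.99 and 11.48. Of 10 endothelial and stromal markers 1 was bright. No marker of these lists passed the criterion given next. One sign of RNA quality or labeling moved with genotype. The 5' probe set of Gapdh had a log2 mean of 4.71 in null and 6.05 in WT arrays, with 3' probe sets at 11.98 and 11.99, and the gap between the 3' and 5' probe sets of beta-actin was 7.35 in null and 6.57 in WT arrays. The part of this difference in the results for repair genes was not tested.

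Of the 41 repair genes, 2 were higher and 1 was lower in Atxn1L null HSCs. Brca2, a tumor suppressor gene needed for homologous recombination, was 1.67-fold higher. Prkdc, the catalytic subunit of the DNA-dependent protein kinase that acts in end joining, was 1.61-fold higher. Chek2, the checkpoint kinase downstream of ATM, was 1.77-fold lower. The criterion was an unadjusted two-sided p of at most 0.05 by limma together with a fold of at least 1.5, where the fold comes from the difference of the log2 means. Of the 41 genes 7.32% passed, against 3.00% of all genes (1.57% higher and 1.43% lower). Bright genes passed more often. Among the 7070 genes whose mean over all arrays was 5 or more, 6.79% passed (3.35% higher and 3.44% lower), next to 3 of the 29 repair genes of that kind. After Benjamini-Hochberg adjustment over all 45037 probe sets the lowest limma p of a repair gene was 0.462, and 0 of the 18193 genes reached an adjusted p under 0.05. At p at most 0.05 alone, 6 of the 41 repair genes and 7.44% of all genes passed, and by the fold alone 6 and 6.08%.

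The median log2 difference of the 41 genes, null minus WT, was 0.02, beside -0.002 for all genes. It was positive for 23 genes and negative for 18, and it ran from -0.82 for Chek2 to 0.99 for Atr. In 11 genes both null arrays lay above all WT arrays and in 5 both lay below, which is 39.0% of the 41 genes beside 17.5% of all genes (9.14% above and 8.35% below). Among the genes whose mean over all arrays was 5 or more the shares were 44.8% and 33.5% (18.2% above and 15.3% below). No exact test of 3 arrays against 2 can go below p = 0.1. For 14 genes the SD of the WT arrays was larger than the size of the difference itself.

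**Figure D1:**
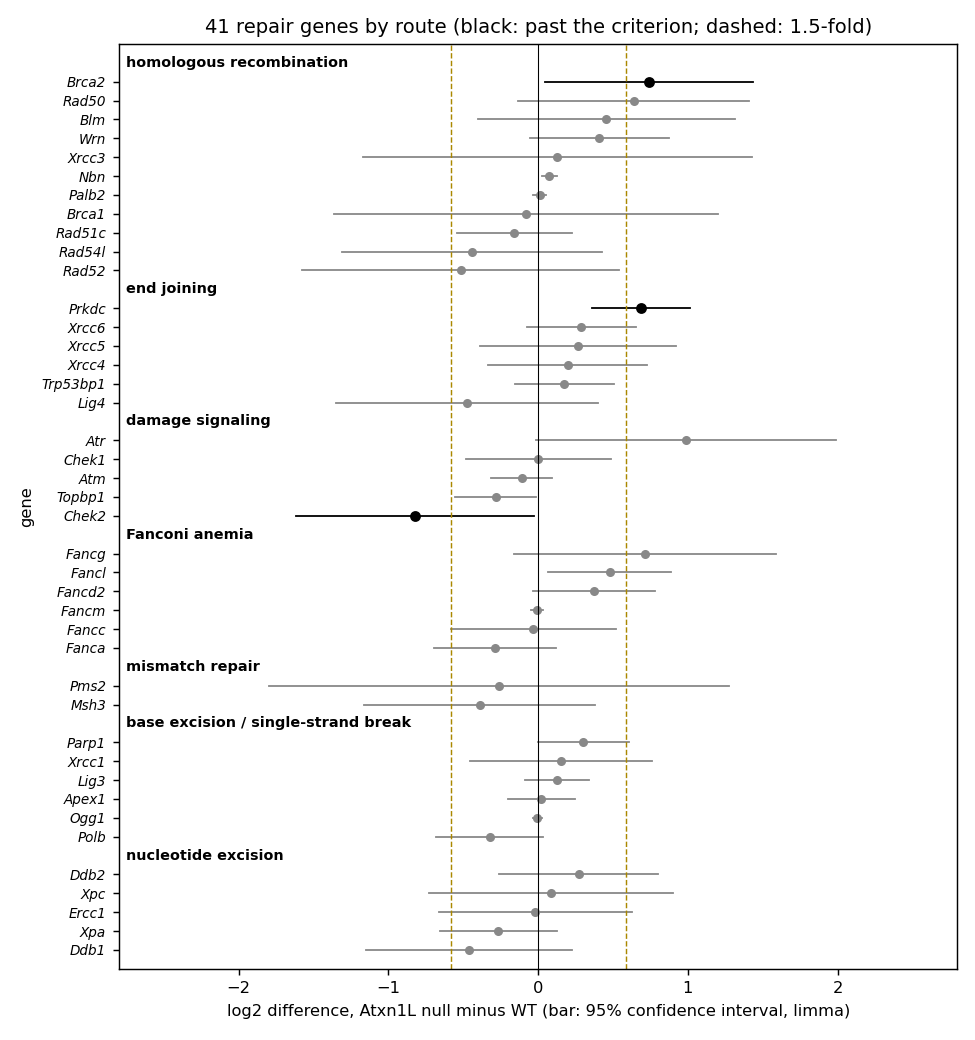
Log2 difference of each of the 41 repair genes, Atxn1L null minus WT (x axis), with genes on the y axis grouped by route, points at the difference and bars for the 95% confidence interval from limma (3 WT and 2 null arrays). The 3 black points, Brca2 and Prkdc on the right and Chek2 on the left, passed the criterion, and the dashed lines mark a fold of 1.5.

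Of the 11 homologous recombination genes, 7 had a positive difference and Brca2 passed. Brca2 read 6.84, 6.20 and 6.36 in the WT arrays and 7.06 and 7.36 in the null arrays (log2 values, as are all levels below). Both null arrays lay above all WT arrays, although WT 1 came within 0.21 of the nearer one. The difference was 0.74 (SE 0.24, 95% interval 0.05 to 1.44, adjusted p = 0.841 by limma), and only 1 probe set reads this gene. The call was kept without WT 1 and lost without any other single array, with differences from 0.59 to 0.93. It was also lost with a replicate block, an alternative fit given below that pairs arrays by number.

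Rad50, the ATPase of the MRN complex that grips broken ends, read 6.01, 5.73 and 5.59 in WT and 6.76 and 6.07 in null arrays, a difference of 0.64 (95% interval -0.14 to 1.41). Its null arrays lay above the WT arrays, null 2 by 0.06, and the gene did not pass. Wrn, a RecQ helicase whose loss in people causes Werner syndrome, read 6.14, 5.90 and 6.38 in WT and 6.51 and 6.59 in null arrays, again with no overlap and a difference of 0.41 (-0.05 to 0.87). The related helicase Blm overlapped between genotypes, with means of 7.44 in WT and 7.89 in null arrays. The other probe sets of Rad50 and Wrn were dim, with means under 3, and differed by 0.02 or less.

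The brightest probe set of this route belonged to Rad54l, a DNA translocase of this route, and its difference was negative. Rad54l read 8.71, 7.99 and 8.10 in WT and 7.58 and 8.08 in null arrays, which overlap, with a difference of -0.44 (-1.31 to 0.43). Its other bright probe sets had differences of -0.46 and -0.99, and neither passed. Brca1, the tumor suppressor that steers breaks to recombination, had nearly equal means of 7.24 in WT and 7.16 in null arrays, with wide spread within each genotype (SD 0.44 and 0.72). Xrcc3, needed for recombination as well, had means of 5.90 and 6.03. Palb2, Rad51c, Rad52 and Nbn were dim, with WT means from 3.23 to 4.90. Nbn, the third MRN subunit, had a difference of 0.08 (0.03 to 0.12), far under the fold required.

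In end joining 5 of 6 genes had a positive difference and Prkdc passed. Prkdc read 6.19, 6.53 and 6.30 in the WT arrays and 7.04 and 7.01 in the null arrays. The null arrays were close to each other and lay 0.48 or more above every WT array. The difference was 0.69 (SE 0.11, 0.36 to 1.01, adjusted p = 0.462 by limma), and the call was kept with each of the 5 arrays left out in turn, at 0.61 to 0.78. The call was lost with the replicate block and with array weights, where the difference was 0.50. Those weights in effect set the null arrays against WT 2 alone. The single probe set of Prkdc leaves no second reading.

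The Ku subunits, which bind the broken ends and recruit the kinase that Prkdc encodes, differed in the same direction without passing. Xrcc6 read 5.87, 5.92 and 5.82 in WT and 6.34 and 5.97 in null arrays, with null 2 just above the WT arrays and a difference of 0.29 (-0.07 to 0.65). Xrcc5 overlapped, with means of 5.98 and 6.24. The brightest probe set of the route read Trp53bp1, a chromatin-bound protein that protects ends from resection. Trp53bp1 read 11.66, 11.66 and 11.40 in WT and 11.66 and 11.84 in null arrays, so that 3 arrays shared a value, and the difference was 0.18 (-0.16 to 0.51). A second bright probe set differed by 0.07. The ligase pair was dim, with WT and null means of 3.73 and 3.93 for Xrcc4 and of 4.94 and 4.46 for Lig4, where null 1 alone was low at 4.01.

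Damage signaling held both the largest positive and the largest negative difference. Chek2 read 8.85, 8.11 and 8.50 in the WT arrays and 7.47 and 7.87 in the null arrays. Both null arrays lay below all WT arrays, and WT arrays spanned 0.74 among themselves. The difference was -0.82 (SE 0.28, -1.62 to -0.03, adjusted p = 0.862 by limma), from a single probe set. The call was kept without WT 2 and lost without any other single array (-1.02 to -0.62). It was also lost when the values were quantile normalized again (-0.80), with array weights (-0.45, in effect against WT 2 alone) and with the replicate block.

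Atr, the kinase that answers stalled forks, read 5.86, 5.25 and 6.26 in WT and 6.92 and 6.64 in null arrays. The null arrays lay above all WT arrays, and the WT arrays spread over 1.01. Atr had the largest difference of the list at 0.99, close to 2-fold (1.98), and missed the criterion by its p alone (95% interval -0.01 to 1.99). It passed with median centring, a trended variance, the replicate block or array weights (1.53), which in effect set the null arrays against WT 2 alone. It also passed without dim probe sets and without WT 2 or WT 3. The other probe sets of Atr were dim and differed by 0.01 and -0.11.

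Topbp1, the activator of the ATR kinase, was the brightest of the route and had a small negative difference. Topbp1 read 9.60, 9.84 and 9.68 in WT and 9.50 and 9.34 in null arrays, with no overlap and a difference of -0.28 (-0.56 to -0.01) that stayed under the fold required. The effector kinase Chek1 had means of 7.07 in both genotypes. Atm, the kinase that answers double-strand breaks, had means of 5.40 and 5.29.

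**Figure D2:**
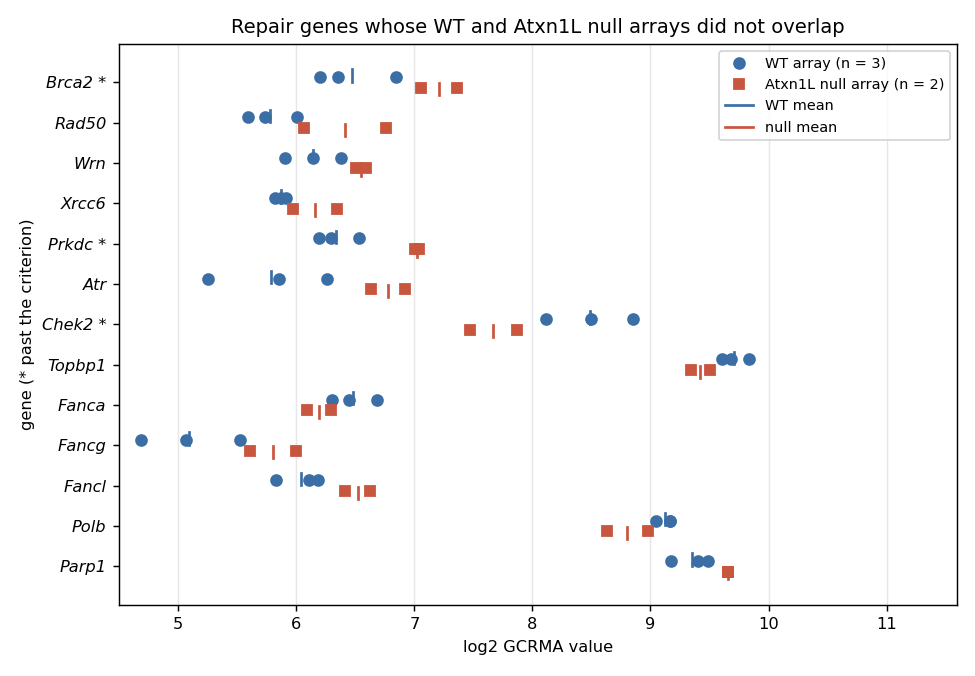
Log2 GCRMA value (x axis) in each array for the 13 repair genes (y axis) whose genotypes did not overlap and which were bright, with circles for WT arrays, squares for null arrays and vertical ticks for the mean of each genotype. The gap between the genotypes was 0.48 for Prkdc, while the nearest arrays of Rad50, Xrcc6 and Fanca almost touch.

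Promoter sequences were compared for the genes that passed, since many repair genes are known targets of E2F factors, which drive S phase expression. RefSeq promoters (GRCm38.p6, 300 bases each, most of them before the start) were on hand for 33 of the 41 genes, among them Brca2 and Chek2 but not Prkdc. The words TTTCCCGC, TTTCGCGC, TTTGCCGC and TTTGGCGC, searched on both strands, were taken as E2F-like. They were found in 7 of the 33 promoters (21.2%) beside 2.61% of the 27025 genes in the table. In the wider list of repair genes described below they were found in 15 of 110 (13.6%). Genes were not matched by base content or by expression level. The 7 genes were Brca2, Chek2, Fancg, Msh3, Rad51c, Topbp1 and Xrcc6. CCAAT, on either strand, was found in 17 of the 33 and in 41.1% of all genes there. Brca2 (chr5:150522371-150522670, + strand) and Chek2 (chr5:110839733-110840032, + strand) are shown because they differed in opposite directions while holding the same 8-letter word. Capitals mark the E2F-like word GCGGGAAA and the CCAAT word read on the other strand, ATTGG.
Brca2: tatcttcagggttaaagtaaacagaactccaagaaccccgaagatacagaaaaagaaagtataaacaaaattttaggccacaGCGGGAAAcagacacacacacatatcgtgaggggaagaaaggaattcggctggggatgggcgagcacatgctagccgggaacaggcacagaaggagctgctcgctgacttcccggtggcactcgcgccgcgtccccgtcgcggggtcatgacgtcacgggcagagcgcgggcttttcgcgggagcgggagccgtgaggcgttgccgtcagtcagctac
Chek2: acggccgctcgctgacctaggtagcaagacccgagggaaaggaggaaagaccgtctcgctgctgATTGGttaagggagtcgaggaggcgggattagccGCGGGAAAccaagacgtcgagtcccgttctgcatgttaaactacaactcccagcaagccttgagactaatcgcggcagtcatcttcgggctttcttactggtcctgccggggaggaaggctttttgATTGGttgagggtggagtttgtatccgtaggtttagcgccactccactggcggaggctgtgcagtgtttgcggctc
The promoter of Atr held neither kind of word in this window. A match describes letters and does not show that a factor binds there.

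Fanconi anemia genes had no member that passed, although Fancg and Fancl were higher in both null arrays. Fancl, the ubiquitin ligase of the core complex, read 6.19, 5.83 and 6.11 in WT and 6.63 and 6.41 in null arrays, a difference of 0.48 (0.07 to 0.89) that was under the fold required. Fancg, a scaffold of the core complex, read 5.07, 4.69 and 5.52 in WT and 5.61 and 6.00 in null arrays, a difference of 0.71 (-0.16 to 1.59) that did not pass by p. Null arrays were the higher ones for both genes, by 0.09 at the closest for Fancg.

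Fanca, the brightest of the route, had a negative difference. Fanca read 6.68, 6.31 and 6.44 in WT and 6.09 and 6.29 in null arrays, where null 2 lay 0.01 below WT 2, and the difference was -0.29 (-0.69 to 0.12). Fancc, another core subunit, had means of 6.22 and 6.19. Fancd2, the protein that the core complex ubiquitinates, was dim, with means of 3.58 in WT and 3.95 in null arrays and no overlap. Fancm, the translocase that anchors the complex, stayed at the floor with means of 3.45 and 3.44.

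Base excision and single-strand break repair held no gene that passed. Apex1, the endonuclease that cuts at abasic sites and the brightest of the route, read 11.87, 11.73 and 11.86 in WT and 11.75 and 11.93 in null arrays, with a difference of 0.02 (-0.20 to 0.24). The genotypes of Apex1 overlapped, and the interval keeps any change of this probe set under the fold of 1.5. Another bright Apex1 probe set had means of 8.67 in WT and 8.47 in null arrays. Its null arrays lay below all WT arrays, with a difference of -0.19 (-0.52 to 0.13), and it did not pass. A further one differed by -0.01. Xrcc1, the scaffold of the route, had means of 7.44 and 7.59, and its ligase Lig3 had means of 5.34 and 5.47. Ogg1, which removes oxidized guanine, was dim at 3.35 and 3.34.

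Polb and Parp1 had no overlap between genotypes, in opposite directions. Polb, the polymerase that fills the excised gap, read 9.17, 9.04 and 9.17 in WT and 8.63 and 8.98 in null arrays, a difference of -0.32 (-0.68 to 0.03). Parp1, which marks breaks with poly(ADP-ribose), read 9.40, 9.49 and 9.18 in WT and 9.66 and 9.66 in null arrays, a difference of 0.30 (-0.004 to 0.61). Neither direction held across the probe sets of the gene. A dimmer Parp1 probe set fell from 5.57 in WT to 4.92 in null arrays, a difference of -0.65 that passed the criterion, and 2 more had differences of -0.26 and -0.14. A further Polb probe set had means of 8.64 in WT and 8.94 in null arrays.

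The 41 genes had 102 probe sets of their own, 41 of them bright. Of these probe sets 4 passed, those of Brca2, Prkdc and Chek2 and the dimmer one of Parp1. Only 7 genes had more than 1 bright probe set, and the sign was shared in 3 of them (Chek1, Rad54l and Trp53bp1) and mixed in 4 (Apex1, Ercc1, Parp1 and Polb). The 3 genes that passed are among the 11 with 1 probe set, so this comparison could not be made for them.

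**Figure D3:**
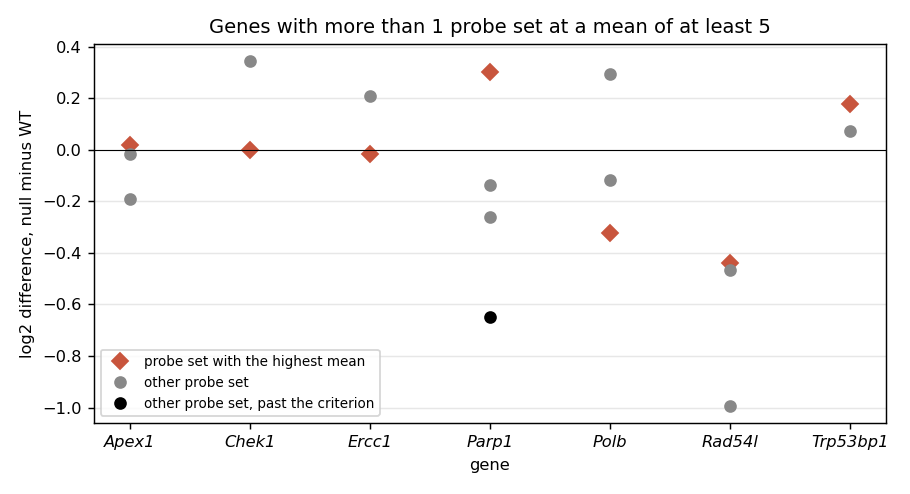
Log2 difference, Atxn1L null minus WT (y axis), of each bright probe set of the 7 repair genes that have more than 1 (x axis), with a diamond for the probe set with the highest mean and circles for the others. Parp1 spans from -0.65, the black circle that passed the criterion, to 0.30, while all 3 probe sets of Rad54l lie below 0.

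No nucleotide excision repair gene passed, and the differences of its 5 genes ran from -0.46 to 0.27. Ddb2, which recognizes ultraviolet lesions in chromatin, was the brightest and read 8.75, 9.21 and 9.19 in WT and 9.21 and 9.43 in null arrays, a difference of 0.27 (-0.26 to 0.80). Its partner Ddb1 had means of 7.39 in WT and 6.93 in null arrays, where null 2 alone was low at 6.61. The nuclease subunit Ercc1 had means of 7.90 and 7.88, and the lesion sensor Xpc had means of 5.15 and 5.23. Xpa, the damage verifier, was dim, with means of 4.47 and 4.20 and no overlap. Both mismatch repair genes were dim as well. Pms2, the brighter, read 4.88, 3.98 and 3.47 in WT and 4.24 and 3.46 in null arrays, and Msh3 had means of 3.71 and 3.32.

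Averaged over their genes, end joining and Fanconi anemia were the routes whose null arrays both lay above all WT arrays. Taking each gene relative to its WT mean, the 6 end joining genes averaged 0.20 and 0.18 in the null arrays and from -0.09 to 0.07 in the WT arrays. The 6 Fanconi anemia genes averaged 0.17 and 0.24 in null arrays and from -0.14 to 0.11 in WT arrays. The other routes overlapped, homologous recombination because WT 1 averaged 0.21, above both null arrays at 0.10 and 0.13. Over all 41 genes both null arrays averaged 0.06 and the WT arrays ran from -0.08 to 0.13. The median difference of a route was 0.23 for end joining, 0.18 for Fanconi anemia, 0.08 for homologous recombination, 0.07 for base excision, -0.02 for nucleotide excision, -0.11 for damage signaling and -0.33 for the dim mismatch pair. With single arrays left out the medians ran from 0.09 to 0.44 for end joining, 0.16 to 0.25 for Fanconi anemia, 0.01 to 0.17 for homologous recombination, 0.03 to 0.10 for base excision, -0.27 to 0.24 for nucleotide excision, -0.24 to -0.005 for damage signaling and -0.56 to -0.02 for mismatch repair. The ends were set by the null arrays for end joining, nucleotide excision and damage signaling, where leaving out null 1 gave 0.09, 0.24 and -0.24 and leaving out null 2 gave 0.44, -0.27 and -0.005. Without dim probe sets the homologous recombination median was 0.41.

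**Figure D4:**
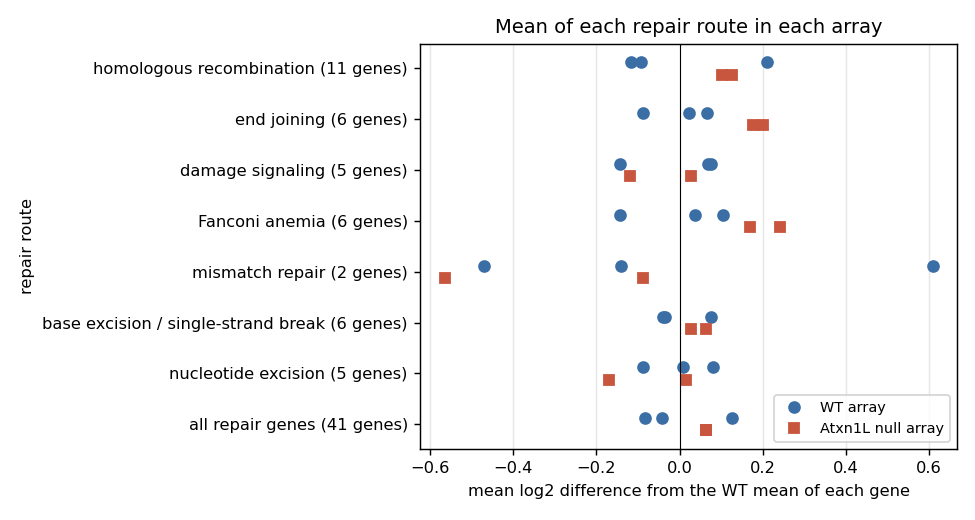
Mean over the genes of each repair route (y axis, with the number of genes) of the log2 difference from each gene's WT mean (x axis), with circles for the 3 WT arrays and squares for the 2 null arrays. Null squares lie to the right of every WT circle for end joining and Fanconi anemia and overlap the circles in the other routes and over all 41 genes.

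Genes of S phase were set beside these values. Of 29 measured S phase and proliferation genes, 23 had a positive difference and 6 a negative one, beside 8259 and 9934 of all genes. Among the 7070 genes whose mean over all arrays was 5 or more these counts were 3710 and 3360. The median of the list was 0.31. The differences ran from -0.90 for E2f1, whose genotypes overlapped, to 0.86 for Mki67, the proliferation marker. Only Mki67 passed, which is 3.45% of the list beside 3.00% of all genes. Averaged over the list, null arrays stood at 0.21 and 0.15 and WT arrays at 0.14, 0.02 and -0.16. WT 1 was the highest WT array on this list, over all 41 repair genes and in every repair route but end joining and nucleotide excision. The part of proliferation in the repair values was not tested.

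A wider list of repair genes was read in the same way. Of its 128 measured genes, none of them among the 42, 3 passed as higher and 1 as lower, which is 3.13% beside 3.00%. Among its 67 genes whose mean over all arrays was 5 or more, 4.48% passed, beside 6.79% of all such genes. The genotypes did not overlap in 22.7% of the 128 genes, beside 17.5% of all genes. For the 67 genes that share was 29.9%, beside 33.5% of all such genes. Tipin, a partner of TIMELESS that steadies replication forks, read 6.78, 6.79 and 6.48 in WT and 7.59 and 7.30 in null arrays, a difference of 0.76 (SE 0.15, 0.33 to 1.19, adjusted p = 0.529 by limma). The call of Tipin was kept with each array left out in turn, that of Rif1 in 2 of 5 such fits and that of Rfc1 in 3 of 5. Rif1, which acts with the product of Trp53bp1, had means of 8.15 and 8.79, and Rfc1, the large subunit of the clamp loader, had means of 9.75 and 10.36. The genotypes did not overlap for either gene. The one lower gene, the nuclease subunit gene Slx1b, was dim, with means of 4.44 and 3.67. By route the wider list had 1 call each among 27 recombination, 10 end joining, 19 signaling and 14 mismatch repair genes, and 0 among 18 Fanconi anemia, 17 base excision and 23 nucleotide excision genes. Its medians were -0.003 for end joining (5 genes positive and 5 negative) and 0.01 for Fanconi anemia (9 and 9). Among the 41 genes the same routes had medians of 0.23 (5 and 1) and 0.18 (3 and 3). The latter lay between the dim genes Fancm (-0.008) and Fancd2 (0.38).

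**Figure D5:**
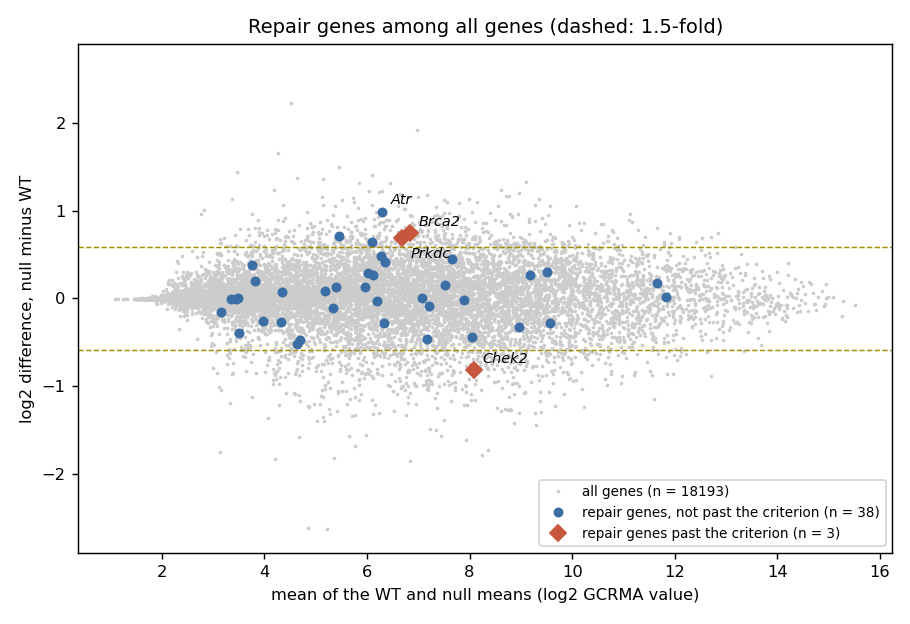
Log2 difference, Atxn1L null minus WT (y axis), against the mean of the WT and null means (x axis, log2 GCRMA value), with small grey points for the 18193 genes, circles for repair genes that did not pass and diamonds for those that did. The 41 repair genes lie inside the cloud of all genes, with 5 of them (Atr, Brca2, Fancg, Prkdc and Rad50) above the dashed 1.5-fold line and Chek2 below the other.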

How the data were processed

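Pools of sorted HSCs gave the RNA of the 5 arrays. The authors processed the intensities with GCRMA (release not given in the sources used here). The deposited values were read as log2 values from their range. All 5 columns were mapped to a genotype from the labels. The authors' steps include quantile normalization, so only relative changes can be seen. In 10 of the 41 genes a WT and a null array held the same value. Array medians ran from 3.03 to 3.07, and precision is limited by the number of arrays.

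From there, 64 control probe sets were left out and 45037 were fitted with lmFit and eBayes in limma 3.58.1 under R 4.3.3, with a mean per genotype, 3 residual and 0.771 prior degrees of freedom. Of the 45101 probe sets, 34945 were annotated to 1 gene, 932 to several and 9160 to none, and only the first kind named a gene. A probe set was called dim at a mean under 5 in both genotypes and otherwise bright. The fit was tested on simulated data with independent noise and with changes larger than those of the repair genes that passed. The members and lists were chosen with earlier results of these data known. Values in every array are given for each gene that passed, each bright gene whose genotypes did not overlap, and the brightest of each route; other genes are given by their means. Promoters and motif words were added after the values were seen.

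Alternatives were a trended variance, array weights, other normalizations, filters and criteria, other ways to combine probe sets, a replicate block and leaving out each array. No source says that the replicate numbers pair a WT pool with a null pool.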

Additional observations from a re-analysis of the deposited data

How the results depend on the processing

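The counts of called repair genes (2 higher and 1 lower) turned on a few genes near the threshold. The number higher was 6 with array weights, 0 at an adjusted p under 0.05, 4 by p alone and 5 by fold alone. It was 1 with the replicate block and 2 to 3 with a WT array left out. The weights did not converge, and they in effect set the null arrays against WT 2 alone. The gene called under the block was Atr, and Brca2, Prkdc and Chek2 were not called there. The number lower was 0 with renewed quantile normalization, 2 when any probe set could pass (Parp1 is added) and 0 at an adjusted p. It was 2 by p alone, 0 with the block and 0 to 1 with a WT array left out. The wider list had 3 higher and 1 lower. Its higher count was 1 with the mean of all probe sets, 0 at an adjusted p, 6 by p alone, 7 by fold alone, 1 with the block and 2 to 9 with an array left out. The lower count of the wider list was 2 with array weights, 0 without dim probe sets, 0 with the mean of probe sets and 0 at an adjusted p. That count was 4 by p alone, 4 by fold alone, 2 with the block and 0 to 3 with a WT array left out. The block drops WT 3, which has no partner. Same-numbered arrays did not deviate together (r = -0.03 and -0.26 over probe sets), but with 2 null arrays these values are not independent and cannot decide on pairing. The numbers were not taken to pair the pools, since no source says that they do. With a null array left out, the lone one is assumed to vary like WT, so counts of called genes are not given for those fits. The share of all genes called in either direction also moved from its 3.00%. It was 3.74% with a trended variance, 4.22% with array weights, 2.92% with renewed quantile normalization, 1.92% with the block and 1.41% with the mean of all probe sets. It was 4.48% when any probe set could pass, 7.44% by p alone and 6.08% by fold alone. Without WT 1, WT 2 or WT 3 it was 2.01%, 3.28% or 2.13%. Of the 7236 genes left without dim probe sets 8.98% were called. The median of the repair genes was 0.02, and 0.13 without dim probe sets, which removes 12 genes.

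Brca2, Prkdc, Chek2, Rif1, Tipin and Rfc1 kept their sign in every fit run. Several genes that did not pass turned sign, among them Parp1, whose genotypes did not overlap. With an array left out, the differences ran from -0.59 to 0.43 for Brca1, -0.21 to 0.47 for Xrcc3, -0.037 to 0.43 for Xrcc4, -0.24 to 0.24 for Chek1, -0.24 to 0.17 for Fancc, -0.65 to 0.13 for Pms2, -0.069 to 0.11 for Apex1, -0.28 to 0.24 for Ercc1 and -0.33 to 0.50 for Xpc. With array weights Brca1 was at 0.12, Chek1 at -0.055 and Ercc1 at 0.22. Median centring put Chek1 at -0.00078 and renewed quantile normalization put Ercc1 at 0.010. Without probe sets that may cross-hybridize, Xrcc3 was at -0.059, Apex1 at -0.19, Ercc1 at 0.21 and Ddb2 at -0.033. With the mean of all probe sets, Trp53bp1 was at -0.037, Atm at 0.0095, Apex1 at -0.063, Lig3 at -0.012, Parp1 at -0.19 and Ercc1 at 0.048. With the replicate block Chek1 was at -0.055 and Ercc1 at 0.011. The cause of each turn was not tested. Letting any probe set pass gives counts and no value per gene, and the dim mismatch genes have no value without dim probe sets.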

Other observations

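Targets of p53, the transcription factor that damage signaling activates, were read beside the repair genes. Of 21 measured targets 2 passed as higher and none as lower, which is 9.52% beside 3.00% of all genes. Both were among the 11 bright targets, and 6.79% of the genes whose mean over all arrays was 5 or more passed. The log2 difference was positive for 10 targets and negative for 11, with a median of -0.01. Ccng1, a cyclin that p53 induces, read 8.25, 8.63 and 8.41 in WT and 9.20 and 9.13 in null arrays, a difference of 0.74 (95% interval 0.37 to 1.11). Zmat3, an RNA-binding protein gene, read 5.18, 5.51 and 5.23 in WT and 6.31 and 5.81 in null arrays, a difference of 0.75 (0.18 to 1.33). Plk2, a kinase gene, had a larger difference of 0.99 and did not pass, since its null arrays were apart at 6.20 and 7.15. Among the targets with a negative difference, Aen was at -0.59, Mdm2 at -0.33 and Cdkn1a at -0.13, each with overlap between genotypes. The targets named here were chosen after their values were seen.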
